A study of Mus musculus with 56 samples.

Results

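The 34 genes described here encode proteins of meiotic recombination and of the synaptonemal complex, the scaffold that holds homologous chromosomes together in meiotic prophase. They were chosen by name from a list and were all found among the 53379 genes of the count table, where GENCODE annotates all 34 as protein-coding. Their transcripts were followed in 56 RNA-seq libraries from C57BL/6 male mice aged 3 months or 21 months, without genetic change or treatment, with 4 libraries for each age in each of 7 regions. The regions were the testis, efferent ductules, initial segment, caput epididymis, corpus epididymis, cauda epididymis and vas deferens. Each library came from whole tissue, and according to the methods the 7 regions were dissected from both sides of each mouse and 4 mice of each age were used. The libraries therefore hold all cell types of a region, sperm in the lumen included. The regions share mice, and the tests between regions treat the libraries as independent.

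Meiosis begins in the testis when spermatogonia become primary spermatocytes. SPO11 and its partners cut the DNA, DMC1 guides the broken ends to the homologous chromosome, and the MutS and MutL homologues MSH4, MSH5 and MLH3 take part in turning some of the repair sites into crossovers. Meanwhile cohesins and HORMA proteins build the chromosome axes, and the synaptonemal complex zips the axes together. The epididymis and vas deferens are somatic ducts that carry, mature and store sperm, and no meiosis takes place in them.

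The members were grouped by role. The synaptonemal complex group held Sycp1, Sycp2, Sycp3, Syce1, Syce2, Syce3 and Tex12. Axis genes were the cohesin subunits Rec8, Smc1b, Stag3 and Rad21l with the HORMA genes Hormad1 and Hormad2. Genes of double-strand break formation were Spo11, Mei1, Mei4, Rec114 and Prdm9. Genes of strand exchange were Dmc1, Psmc3ip, Mnd1, Meiob and Spata22, and those of crossover formation were Msh4, Msh5, Mlh3, Hfm1, Tex11 and Rnf212. Majin, Terb1 and Terb2 attach telomeres to the nuclear envelope, and Meioc and Ythdc2 act together at meiotic entry.

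The libraries held 11125279 to 20561967 counted reads, with a median of 16384049. Some libraries stood apart. In replicate 3 of the 3-month efferent ductules the 34 members had a median of 3.27% of their testis level, against 0.409% to 0.862% in the other 3 libraries of the group, and the 13 spermatid and sperm markers were also high there. In replicate 2 of the 3-month caput a single gene, Gm42418, took 49.7% of the counts. The same gene took 22.2% and 18.5% of the counts in replicates 1 and 4 of the 21-month efferent ductules, which had the lowest totals of their group. Without these 4 libraries the counts of testis-specific genes given below were the same, and those of duct-enriched genes and of age in the efferent ductules are given beside the results. Others were not left out there. In replicate 3 of the 3-month cauda the 8 immune cell markers summed to 665 CPM, against 54.5 to 60.8 CPM in the other libraries of the group, and Gm42418 took 36.0% of the counts in replicate 3 of the 21-month corpus.

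Promoter windows were looked up to show what the members share in sequence. RefSeq gave a window for 28 of the 34 members on build GRCm38.p6, and none was found for Terb2, Majin, Spo11, Meiob, Ythdc2 and Tex11. In the 250 bases before the start, 3 sets of letters were sought on both strands. These were TCCCGC, the core of many E2F sites, CACGTG, an E-box, and CNCCTCAG, a motif described for the meiotic inducer STRA8, whose reverse can overlap that of the first, as in the second Syce2 window. E2F6 is known to keep several germline genes silent in somatic cells. TCCCGC was present in 14 of the 28 members (50.0%) in at least 1 window, and in 18.8% of all 27025 genes with a window. The E-box was present in 7 members (25.0%) and in 6.86% of all genes, and the STRA8 motif in 5 members (17.9%) and in 7.39% of all genes. The member windows were also richer in CpG, with a median of 13 CpG and 59.2% G and C, against 6 CpG and 52.4% over all windows. No test was made of these shares.

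Of the 15 members that were testis-specific against every other region at both ages and enriched in no duct, 14 had a window and 9 of these held TCCCGC. Of the 7 members that were not testis-specific, 6 had a window and 3 of these held it. The other 12 members were all testis-specific at both ages, and of these 8 had a window and 2 held it. The following windows show 4 members of the restricted kind and 3 that were enriched in a duct, 5′ to 3′ on the strand of the gene and ending just before the start, with the letters TCCCGC or CACGTG (or their reverse complement) in capitals. Hormad1, Meioc, Smc1b and Sycp1 were nearly restricted to the testis, while Rec8, Stag3 and Rec114 had the highest level among the ducts in the efferent ductules, caput and corpus.
Hormad1, chr3:95559427-95559676, plus strand: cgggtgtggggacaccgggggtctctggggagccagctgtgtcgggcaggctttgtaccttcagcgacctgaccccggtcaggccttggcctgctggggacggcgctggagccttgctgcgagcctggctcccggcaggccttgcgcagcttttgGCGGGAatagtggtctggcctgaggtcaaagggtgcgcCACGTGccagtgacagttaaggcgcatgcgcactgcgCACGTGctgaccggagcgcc
Meioc, chr11:102665335-102665584, plus strand: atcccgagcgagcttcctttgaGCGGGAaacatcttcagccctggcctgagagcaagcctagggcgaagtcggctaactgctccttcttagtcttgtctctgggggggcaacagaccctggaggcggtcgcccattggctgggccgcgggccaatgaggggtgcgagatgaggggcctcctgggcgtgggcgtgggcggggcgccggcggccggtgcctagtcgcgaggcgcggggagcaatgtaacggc
Smc1b, chr15:85131958-85132207, minus strand: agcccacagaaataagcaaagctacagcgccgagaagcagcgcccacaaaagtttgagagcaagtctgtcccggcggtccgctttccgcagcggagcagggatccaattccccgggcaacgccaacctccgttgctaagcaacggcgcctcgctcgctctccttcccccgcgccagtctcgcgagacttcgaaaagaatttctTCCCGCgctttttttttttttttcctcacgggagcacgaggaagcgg
Sycp1, chr3:102936101-102936350, minus strand: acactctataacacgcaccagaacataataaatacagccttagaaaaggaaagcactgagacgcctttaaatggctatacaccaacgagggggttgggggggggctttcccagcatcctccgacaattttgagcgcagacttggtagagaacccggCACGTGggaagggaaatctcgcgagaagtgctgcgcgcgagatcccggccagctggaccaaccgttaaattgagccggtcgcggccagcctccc
Rec8, chr14:55617916-55618165, plus strand: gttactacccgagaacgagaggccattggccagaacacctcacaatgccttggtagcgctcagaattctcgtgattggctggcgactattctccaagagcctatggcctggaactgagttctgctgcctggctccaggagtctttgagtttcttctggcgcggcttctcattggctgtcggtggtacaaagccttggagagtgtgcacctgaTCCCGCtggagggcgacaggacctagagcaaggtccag
Stag3, chr5:138280259-138280508, plus strand: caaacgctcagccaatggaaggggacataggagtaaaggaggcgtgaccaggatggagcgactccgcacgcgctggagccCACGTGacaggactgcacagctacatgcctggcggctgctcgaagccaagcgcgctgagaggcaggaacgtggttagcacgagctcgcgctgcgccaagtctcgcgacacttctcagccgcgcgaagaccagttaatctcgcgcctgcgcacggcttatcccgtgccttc
Rec114, chr9:58741560-58741809, minus strand: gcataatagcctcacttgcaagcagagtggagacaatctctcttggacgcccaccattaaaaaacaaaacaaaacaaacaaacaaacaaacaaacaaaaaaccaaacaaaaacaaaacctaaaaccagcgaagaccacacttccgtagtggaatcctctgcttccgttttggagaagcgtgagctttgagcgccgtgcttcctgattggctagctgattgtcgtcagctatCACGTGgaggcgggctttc
The Hormad1 window held both sets of letters, those of Meioc, Smc1b and Rec8 held TCCCGC or its reverse complement, and those of Sycp1, Stag3 and Rec114 held the E-box. Each set of letters thus occurred both in restricted genes and in genes enriched in a duct. Of the latter, Stag3 was also testis-specific. All windows shown held a match, while those of Msh4, Syce1 and Sycp2, also of the restricted kind, held neither set.

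In the testis of 3-month-old mice the members covered almost 3 orders of magnitude when levels were set per length. Reads per gene were expressed as CPM, that is scaled to a common library total after TMM normalization within the testis libraries. They were divided by the length of the merged exons, and values are given as mean ± SD of 4 libraries. The 5 highest genes belonged to the synaptonemal complex or the axes.

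Syce1, which encodes a protein of the central element of the synaptonemal complex, had the highest level, at 154 ± 15.8 CPM per kb. Its CPM in the 4 libraries were 238.5, 249, 197 and 217 at 3 months and 243, 237, 232 and 211.5 at 21 months. Sycp2 and Sycp3, which build the lateral elements, followed at 75.4 ± 4.77 and 65.5 ± 2.935 CPM per kb. Of the Sycp3 exons 52.2% overlap Chpt1 on the other strand, which had a mean of 88.2 library-size CPM in the 3-month testis. The transverse filament gene Sycp1 had 39.3 ± 1.86 CPM per kb, close to Syce3 at 39.35 ± 5.06, and their libraries overlapped. Tex12, another central element gene, was the lowest of the group at 9.795 ± 1.47 CPM per kb, with CPM of 8.54, 9.51, 12.1 and 9.70 at 3 months and 9.26, 10.4, 9.97 and 9.81 at 21 months.

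Among the axis genes, Stag3, the meiosis-specific stromal antigen subunit of cohesin, was highest at 88.3 ± 2.73 CPM per kb. Its CPM were 524, 504, 486 and 511 at 3 months and 501, 492, 495 and 524 at 21 months. Smc1b had 65.1 ± 3.24 CPM per kb and Hormad1 had 48.4 ± 1.62, while the kleisin gene Rec8 had 29.8 ± 5.14. The other meiotic kleisin, Rad21l, was the lowest axis gene at 2.15 ± 0.268 CPM per kb. Its CPM were 3.97, 3.92, 3.11 and 3.25 at 3 months and 3.42, 3.36, 3.72 and 3.36 at 21 months.

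Break formation genes spread most. Spo11, the nuclease that makes the breaks, had 16.4 ± 0.676 CPM per kb and CPM of 60.3, 64.6, 65.9 and 65.8 at 3 months and 62.8, 65.9, 62.5 and 62.6 at 21 months. Its partners Mei1, Rec114 and Mei4 had 2.82 ± 0.192, 0.728 ± 0.170 and 0.164 ± 0.05775 CPM per kb, and Prdm9, the histone methyltransferase that places the hotspots, had 1.69 ± 0.1135. Mei4 was the lowest of all 34 members, with 18, 14, 9 and 9 reads in the 3-month libraries and 24, 14, 29 and 13 in the 21-month libraries. These correspond to CPM of 0.992, 0.731, 0.474 and 0.5135 and 1.26, 0.7245, 1.52 and 0.693.

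In strand exchange, Psmc3ip (also called Hop2) was highest at 19.3 ± 1.68 CPM per kb, and its partner Mnd1 was lowest at 1.915 ± 0.398. The 3-month CPM were 32.6, 34.8, 39.4 and 33.4 for Psmc3ip and 1.98, 1.25, 1.53 and 1.94 for Mnd1. At 21 months they were 27.7, 29.8, 31.0 and 28.9 for Psmc3ip and 1.68, 1.97, 2.675 and 2.025 for Mnd1. The libraries of these partners, which act as a heterodimer, did not overlap. Of the Psmc3ip exons 21.2% overlap Mlx on the other strand. The recombinase gene Dmc1 had 6.77 ± 0.808 CPM per kb.

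Crossover genes were led by the helicase Hfm1 at 13.25 ± 0.7865 CPM per kb, with CPM of 88.7, 83.1, 95.65 and 86.8 at 3 months and 79.9, 85.3, 85.3 and 84.15 at 21 months. Rnf212 was the lowest of them at 3.05 ± 0.629 CPM per kb, with CPM of 6.01, 5.85, 4.11 and 4.165 and 5.63, 4.55, 4.25 and 5.06. Msh4 and Msh5, which work as a pair, had 4.54 ± 0.563 and 4.10 ± 0.3135 CPM per kb, and their libraries overlapped. Of the telomere genes, Majin had 9.90 ± 0.676 CPM per kb, with libraries that overlapped those of Terb1, and Terb2 was lowest at 2.78 ± 0.293. The 3-month CPM were 16.1, 15.9, 17.8 and 15.2 for Majin and 6.01, 5.85, 6.58 and 5.08 for Terb2, and the 21-month CPM were 15.6, 15.5, 17.15 and 18.7 and 3.94, 5.54, 3.93 and 5.81. At meiotic entry, Meioc had 48.9 ± 1.03 CPM per kb and the RNA helicase gene Ythdc2 had 5.265 ± 0.316. Their 3-month CPM were 228.5, 220.2, 223 and 231 and 47.7, 42.6, 49.0 and 47.7, and their 21-month CPM were 235, 224, 229.8 and 226 and 41.3, 46.4, 44.5 and 48.8.

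In the 3-month order of the 34 members, 14 of the 33 neighbouring pairs had libraries that did not overlap. Among these steps were those from Syce1 to Stag3, from Sycp1 to Rec8, from Rec8 to Psmc3ip and from Rec114 to Mei4. The 7 genes from Hfm1 down to Mlh3, and the 7 from Rnf212 down to Prdm9, each overlapped the next in the order.

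**Figure D1:**
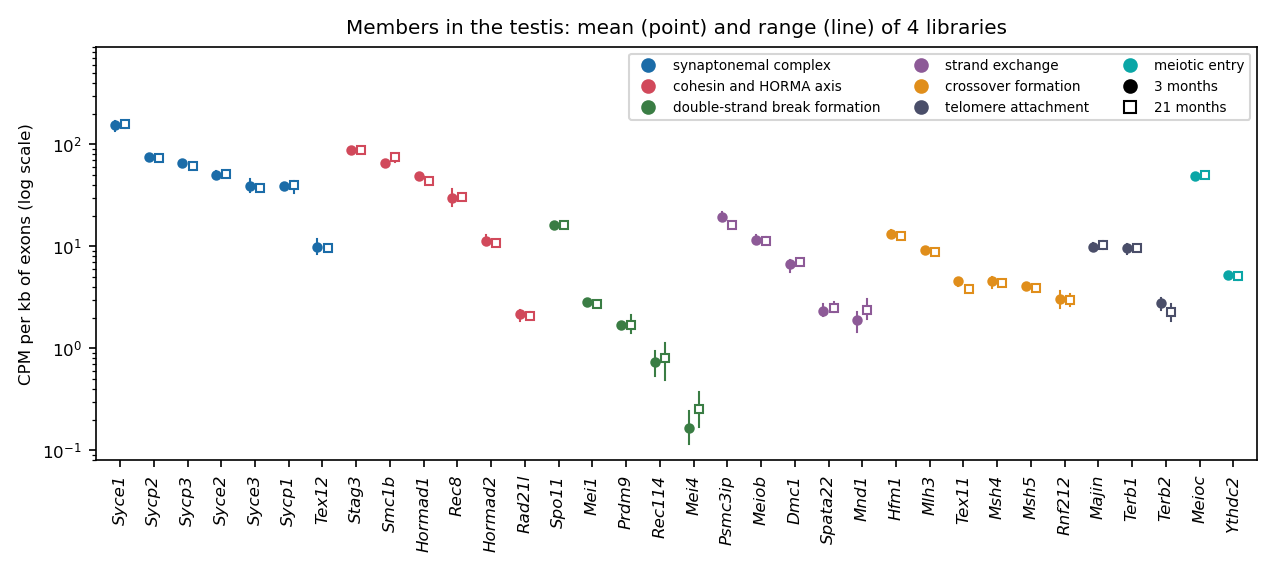
Level of each member in the testis as CPM per kb of merged exons on a log axis, by role group, with filled circles for 3 months, open squares for 21 months and lines for the range of the 4 libraries. Syce1 is highest at 154 CPM per kb and Mei4 lowest at 0.164, and the ages lie close together for each gene.

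The comparison of the ages asked whether meiotic transcripts differ between the testis of young adult and old mice. Of the 34 members, none had an adjusted p under 0.05 by the edgeR quasi-likelihood test, where 0.563% of the 30031 genes tested did, and DESeq2 also called none. The smallest adjusted p among the members was 0.145. On the log2 scale, 21 members were lower and 13 higher at 21 months by sign alone, the median was -0.02, against -0.01 over all genes tested, and the values ran from -0.29 (Terb2) to 0.63 (Mei4).

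The intervals show roughly how large a difference these libraries could have hidden. They were derived from the log2 fold change and the F statistic of the test, and are least sure where the change is small. For 30 of the 34 members the 95% interval lay within a 1.5-fold change either way. The 4 exceptions were Mei4, Rec114, Mnd1 and Terb2, all at low counts, and their intervals reached from -0.06 to 1.32 for Mei4, from -0.49 to 0.76 for Rec114, from -0.12 to 0.76 for Mnd1 and from -0.60 to 0.01 for Terb2.

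An unadjusted p under 0.05 was reached by 4 members (11.8% of 34), where 10.4% of all genes tested reached it. Smc1b, the meiotic SMC1 subunit of cohesin, had CPM of 262, 276, 246 and 269.8 at 3 months and 328, 307, 296 and 272 at 21 months (log2 fold change 0.19 ± 0.06 (SE), adjusted p = 0.172 by the edgeR quasi-likelihood test). The ages overlapped, since the lowest old library lay below the highest young one. Psmc3ip, with the CPM given above, was lower in every old library than in every young one (log2 fold change -0.26 ± 0.07 (SE), adjusted p = 0.145 by the edgeR quasi-likelihood test). Tex11, an X-linked crossover gene, had CPM of 17.02, 14.9, 16.5 and 17.5 at 3 months and 14.4, 12.8, 13.5 and 14.7 at 21 months (log2 fold change -0.25 ± 0.09 (SE), adjusted p = 0.257 by the edgeR quasi-likelihood test). Hormad1 had CPM of 81.65, 81.6, 87.5 and 84.15 at 3 months and 75.7, 76.4, 79.3 and 73.4 at 21 months (log2 fold change -0.14 ± 0.06 (SE), adjusted p = 0.394 by the edgeR quasi-likelihood test). Young and old libraries were fully separated for Psmc3ip, Tex11 and Hormad1, 3 of 34 members, as for 6.31% of all genes tested. Nor did any member pass the rule of the study, an unadjusted p under 0.05 with a fold change of at least 1.5, which 2.71% of all genes passed.

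**Figure D2:**
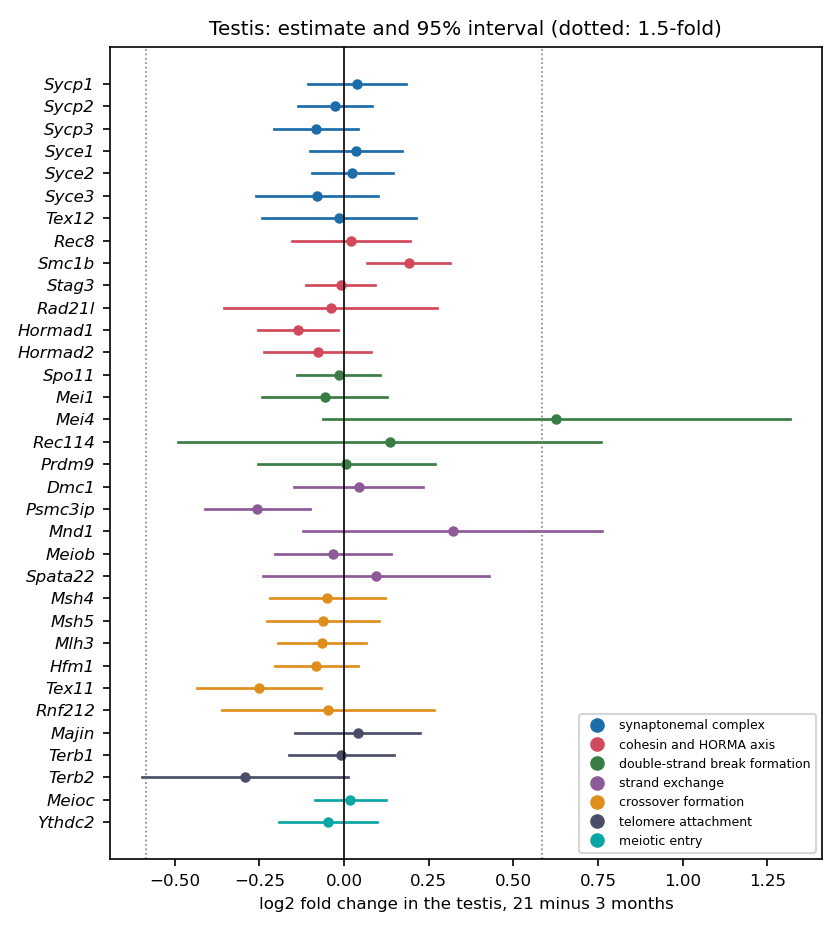
Log2 fold change of each member in the testis, 21 minus 3 months (4 libraries each), as points with 95% intervals as lines, coloured by role group, and dotted lines at a 1.5-fold change. All points except Mei4 lie between the dotted lines, and the intervals of Mei4, Rec114, Mnd1 and Terb2 cross one of them.

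Marker genes of the testis cell types were read in the same libraries. The 10 spermatocyte markers summed to 5653 to 5938 CPM at 3 months and 5406 to 5543 CPM at 21 months, so each old sum was below the young ones. The sum gives most weight to abundant markers. The median log2 fold change of the list was -0.004, against -0.006 over all genes, and its values ran from -0.20 to 0.10. The list as a whole was thus not shifted. Of these markers 1 fell, Ldhc, the testis lactate dehydrogenase gene (log2 fold change -0.20, adjusted p = 0.0354 by the edgeR quasi-likelihood test). The 13 spermatid and sperm markers summed to 12010 to 13820 and 13050 to 13950 CPM and none was called. Among 10 spermatogonial markers Kit, the stem cell factor receptor of differentiating spermatogonia and of Leydig cells, rose (0.41, adjusted p = 0.00198 by the same test). Of 7 Leydig cell markers Star (1.02) and Hsd3b6 (0.70) rose and Cyp11a1 (-0.60) fell, all 3 genes of steroid synthesis. In whole tissue, fewer cells of a type cannot be told apart from less RNA in each cell.

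Among the 25 other genes of meiotic recombination and synapsis that were found, including Exo1, Fignl1 and Tex15, all were tested in the testis and none was called for age. Their log2 fold changes ran from -0.32 to 0.10, with a median of -0.02. None of them reached an unadjusted p under 0.05 by the edgeR quasi-likelihood test.

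Most of the members were testis-specific by the rule used here, although 17 to 26 of the 34 had reads in all 4 libraries of each duct group. For this comparison all 28 libraries of one age were scaled together by TMM. To be called testis-specific a member needed an adjusted p under 0.05 together with a testis mean no less than 4-fold above the mean over the other 6 regions. At 3 months 27 of the 34 members passed (79.4%), where 28.2% of the 34475 genes tested did, and at 21 months the same 27 passed, where 27.6% of all genes did. By role these were all 7 genes of the synaptonemal complex, 5 of 6 axis genes, 3 of 5 break formation genes, 4 of 5 strand exchange genes, 4 of 6 crossover genes, all 3 telomere genes and 1 of 2 genes of meiotic entry. Of the other meiotic genes 19 of 25 passed at either age, and all 13 spermatid and sperm markers did.

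The steepest contrasts at 3 months were those of Tex12, Hormad1, Terb2 and Meioc. Hormad1 had a mean of 82.6 ± 3.07 CPM in the testis and at most 0.233 CPM in another region, and no read in the 4 libraries of the vas deferens. Against a floor of 3 reads over that group its library-size CPM was at least 1700-fold higher in the testis. Tex12 had 9.82 ± 1.54 CPM in the testis and no read in the efferent ductules or caput, where its level in the testis was at least 204-fold and 211-fold higher. Meioc had 223 ± 1.53 CPM in the testis and 0.902 in the initial segment, the next region. Sycp1, Sycp2 and Sycp3 had 138 ± 6.82, 444 ± 22.6 and 81.7 ± 3.53 CPM in the testis and means under 3 CPM in every duct.

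As a share of the testis mean, the median member stood between 0.653% (vas deferens) and 1.24% (caput) in the 6 duct regions at 3 months, and between 0.52% (initial segment) and 2.17% (caput) at 21 months. In each duct group, 13 to 19 members had less than 1% of their testis level and 6 to 10 had at least 10%. The 13 spermatid and sperm markers summed to 487 to 824 CPM in the 3-month cauda and 12.3 to 138 CPM in the vas deferens, against 11650 to 13790 CPM in the testis. Their part in the low member values was not tested.

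**Figure D3:**
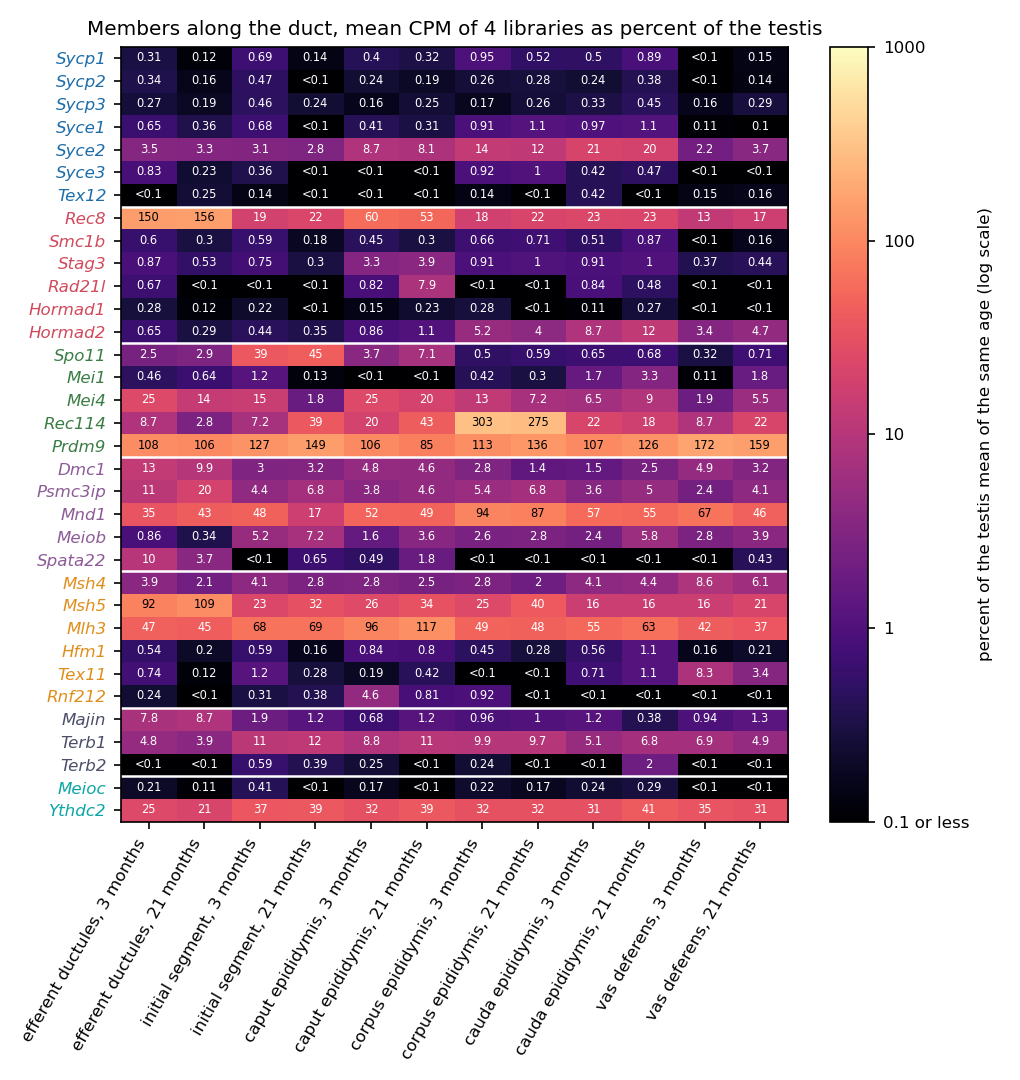
Mean CPM of each member in each duct group (4 libraries) as percent of the testis mean of the same age, on a log colour scale with the values printed and gene names coloured by role. In each duct group 13 to 19 of the 34 members lie under 1% of the testis.

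The 7 members that were not testis-specific at either age were Rec8, Rec114, Prdm9, Mnd1, Msh5, Mlh3 and Ythdc2. Their mean in the testis was 0.819 (Prdm9) to 3.11 (Ythdc2) times that of the ducts at 3 months. The scaling mattered here. DESeq2 size factors raised the median testis level of all genes relative to the ducts by 0.46 at 3 months and 0.51 at 21 months on the log2 scale, and with them Msh5 (4.02 times at 3 months) and Ythdc2 (4.14 at 3 months and 4.04 at 21 months) passed the limit of 4.

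Mlh3, whose product cuts crossover intermediates and also serves in mismatch repair, was the most abundant or second most abundant member in every duct region at 3 months. Its CPM at 3 months were 71.7, 65.6, 63.6 and 70.95 in the testis and 54.6, 66.7, 67.7 and 73.0 in the caput. The efferent ductules had 31.9, 30.1, 31.3 and 34.15 CPM, the initial segment 44.8, 48.55, 42.7 and 48.7 CPM and the corpus 27.95, 32.1, 34.2 and 39.7 CPM. The cauda had 36.2, 38.1, 34.95 and 40.5 CPM and the vas deferens 28.6, 31.3, 27.01 and 28.1 CPM. The caput libraries overlapped those of the testis, and all other ducts were below both.

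Ythdc2, an RNA helicase that is also made in many somatic cells, had 3-month CPM of 17.05, 14.5, 16.6 and 16.5 in the vas deferens, where it ranked second among the members. Its duct means ran from 25.2% to 37.4% of the testis at 3 months, and its testis libraries lay above every duct library. Mnd1 had 1.65 ± 0.3225 CPM in the testis and 1.55 ± 0.8385 CPM in the corpus, the highest duct, on 13 to 37 reads per corpus library.

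Prdm9 was read in every library of every region, at 4.996 to 12.95 CPM at 3 months. Its 3-month CPM were 7.395, 7.80, 6.65 and 6.86 in the testis and 12.95, 11.4, 12.25 and 12.65 in the vas deferens, where every library was above every testis library (1.72-fold, adjusted p = 7.7e-05 by the edgeR quasi-likelihood test, where 33.4% of all genes were higher in the vas deferens than in the testis). At 21 months the fold was 1.59 (adjusted p = 0.000244 by the same test, where 35.1% of all genes were higher). With DESeq2 size factors the fold was 1.295 at 3 months and 1.18 at 21 months, and the latter no longer passed (adjusted p = 0.162 in the edgeR fit). Against the mean of all ducts the 3-month testis level of Prdm9 was 0.819 times by TMM (adjusted p = 0.0606 by the edgeR quasi-likelihood test) and 1.09 times by DESeq2 size factors (adjusted p = 0.282), so its direction depended on the scaling.

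Within the ducts, levels were compared with one another, each region against the mean of the other 5 by the same 4-fold rule. This asked whether the trace of meiotic transcripts is even along the tract. At 3 months 10 such calls were made over the 34 members, and at 21 months 13, with 9 pairs of gene and region called at both ages. The share of all genes called ran from 3.14% (initial segment) to 7.96% (efferent ductules) at 3 months and from 2.23% (caput) to 7.10% (efferent ductules) at 21 months.

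Rec8 was the most abundant member in the efferent ductules, where 4 members were called at 3 months (11.8% of 34, and 7.96% of all genes) and 3 at 21 months (8.82%, and 7.10% of all genes). Its 3-month CPM there were 131, 135.5, 118 and 132, and its 21-month CPM 108.5, 147, 147.5 and 115. Every library was above every library of the other ducts, and the mean was 5.63 times that of the other 5 ducts at 3 months (adjusted p = 2.32e-19 by the edgeR quasi-likelihood test) and 5.71 times at 21 months. The caput came next, with 71.6, 42.6, 46.2 and 46.1 CPM at 3 months.

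The corpus had 15.45, 14.1, 18.7 and 14.8 CPM of Rec8 at 3 months, and the means of the initial segment, cauda and vas deferens were 16.1, 19.98 and 11.2 CPM. In the testis the 3-month CPM were 75.7, 92.8, 106 and 71.2, all below the efferent ductules. By TMM the efferent ductules stood 1.495-fold above the testis at 3 months (adjusted p = 0.00194 by the edgeR quasi-likelihood test, where 34.8% of all genes were higher in the efferent ductules). With DESeq2 size factors the fold was 1.13 (adjusted p = 0.32 in the edgeR fit), so this call depended on the scaling.

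Msh5 was also highest in the efferent ductules among the ducts, at a lower level. Its CPM in the efferent ductules were 20.1, 21.4, 21.0 and 19.7 at 3 months and 15.4, 28.3, 24.9 and 19.8 at 21 months. The fold over the other ducts was 4.32 at 3 months (adjusted p = 9.16e-17 by the edgeR quasi-likelihood test) and 3.82 at 21 months, just under the limit of 4, while each library stayed above 9.705 CPM, the highest value in another duct. Its usual partner Msh4 was testis-specific. Majin, at 1.41, 1.15, 1.37 and 1.04 CPM at 3 months and 1.55, 0.8645, 1.28 and 1.75 CPM at 21 months, was 6.805 and 8.65 times the other ducts, with adjusted p of 1.5e-09 and 1.29e-09 by the same test. Spata22 was called there on 6, 5, 8 and 4 reads at 3 months and 2, 3, 0 and 1 reads at 21 months, and 80.5% of its exons overlap Gm49340 on the same strand. Without replicate 3 of the 3-month efferent ductules and replicate 2 of the 3-month caput the folds were 5.63 for Rec8, 4.26 for Msh5 and 7.04 for Majin, and 11 duct calls were made in all instead of 10.

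Spo11 was enriched in the initial segment. Its CPM there were 30.7, 23.6, 25.5 and 19.2 at 3 months and 18.5, 23.1, 34.2 and 29.9 at 21 months, or 39.1% and 44.6% of the testis means. The caput came next with means of 2.34 and 4.18 CPM, and no library of another duct reached 6 CPM. Against the other ducts the fold was 25.6 at 3 months and 18.7 at 21 months (adjusted p = 6.27e-22 and 1.51e-19 by the edgeR quasi-likelihood test). It was the 1 member of 34 called in this region at each age (2.94%, against 3.14% and 5.26% of all genes). Mei1, Rec114 and Mei4, whose products act with SPO11, were not called there. In the 3-month initial segment Mei1, Rec114 and Mei4 had 0.155, 0.0661 and 0.0995 CPM, and at 21 months 0.0153, 0.374 and 0.0175 CPM.

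Stag3 was enriched in the caput, where 2 members were called at 3 months (5.88%, against 4.27% of all genes) and 3 at 21 months (8.82%, against 2.23%). Its CPM were 17.2, 17.4, 13.55 and 17.4 at 3 months and 15.4, 18.8, 18.4 and 19.8 at 21 months, which is 3.28% and 3.86% of the testis. The fold over the other ducts was 4.315 at 3 months (adjusted p = 2.15e-10 by the edgeR quasi-likelihood test) and 5.78 at 21 months, and every caput library was above every library of another duct. Scaled by library size the 3-month fold was 3.60, and it was 3.86 without replicate 1 of each region and 3.79 without replicate 4 of each region. The other caput calls rested on few reads. Rnf212 had 2, 5, 0 and 0 reads at 3 months and 0, 0, 2 and 1 at 21 months, and Rad21l, called at 21 months, had 4, 7, 2 and 4.

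Rec114 was the clearest case in the corpus. Its CPM there were 3.47, 2.405, 2.81 and 2.45 at 3 months and 3.30, 2.13, 2.84 and 2.29 at 21 months, on 46, 33, 51 and 31 and 51, 28, 30 and 34 reads. In the testis the CPM were 0.918, 0.890, 1.205 and 0.664 at 3 months and 0.739, 0.579, 1.17 and 1.345 at 21 months, so every corpus library was above every testis library at both ages. The corpus was 3.01-fold above the testis at 3 months (adjusted p = 0.000664 by the edgeR quasi-likelihood test, where 33.6% of all genes were higher in the corpus) and 2.74-fold at 21 months (33.5% of all genes). With DESeq2 size factors the folds were 2.28 and 2.02 (adjusted p = 0.00758 and 0.0392 in the edgeR fit), in the same direction.

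Against the other ducts the fold of Rec114 in the corpus was 22.9 at 3 months and 11.0 at 21 months (adjusted p = 8.95e-13 and 5.62e-10 by the edgeR quasi-likelihood test). Of its exons 26.9% overlap Nptn on the other strand. Nptn had a mean of 64.4 library-size CPM in the 3-month corpus and 168 in the vas deferens, where Rec114 had 0.0950. The part of Nptn reads in the Rec114 counts was not tested. In the corpus 1 member was called at 3 months (2.94%, against 3.51% of all genes) and 2 at 21 months (5.88%, against 3.95%), the other being Syce3 on 1, 1, 2 and 7 reads.

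In the cauda, Hormad2 had CPM of 3.72, 2.245, 1.58 and 3.12 at 3 months and 2.71, 5.45, 2.735 and 2.77 at 21 months. Its fold over the other ducts was 4.14 (adjusted p = 3.62e-10 by the edgeR quasi-likelihood test) and 5.95, and without replicate 1 of each region the 3-month fold was 3.22, under the limit. At 3 months the libraries overlapped those of another duct, the highest of which had 1.75 CPM. In all, 1 member was called in the cauda at 3 months (2.94%, against 3.30% of all genes) and 3 at 21 months (8.82%, against 3.79%), the others being Mei1 on 11, 9, 1 and 5 reads and Terb2 on 2, 4, 0 and 0 reads.

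Syce2 ranked second among the members in the 3-month cauda, with CPM of 22.3, 20.6, 15.6 and 23.3, and stood at 15.8, 12.6, 10.5 and 14.7 in the corpus and 8.60, 7.71, 7.865 and 9.95 in the caput. It passed the limit of 4 in no duct. The efferent ductules, initial segment and vas deferens were each below 5 CPM in all 3-month libraries.

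Tex11 was enriched in the vas deferens, with CPM of 1.597, 1.67, 0.8865 and 1.27 at 3 months and 0.519, 0.309, 0.702 and 0.231 at 21 months. Its fold over the other ducts was 14.9 at 3 months and 8.69 at 21 months (adjusted p = 2.5e-09 and 9.51e-07 by the edgeR quasi-likelihood test). All 3-month libraries were above every library of another duct, whereas the 21-month libraries overlapped them. It was the 1 member called there at each age (2.94%, against 3.56% and 4.51% of all genes).

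**Figure D4:**
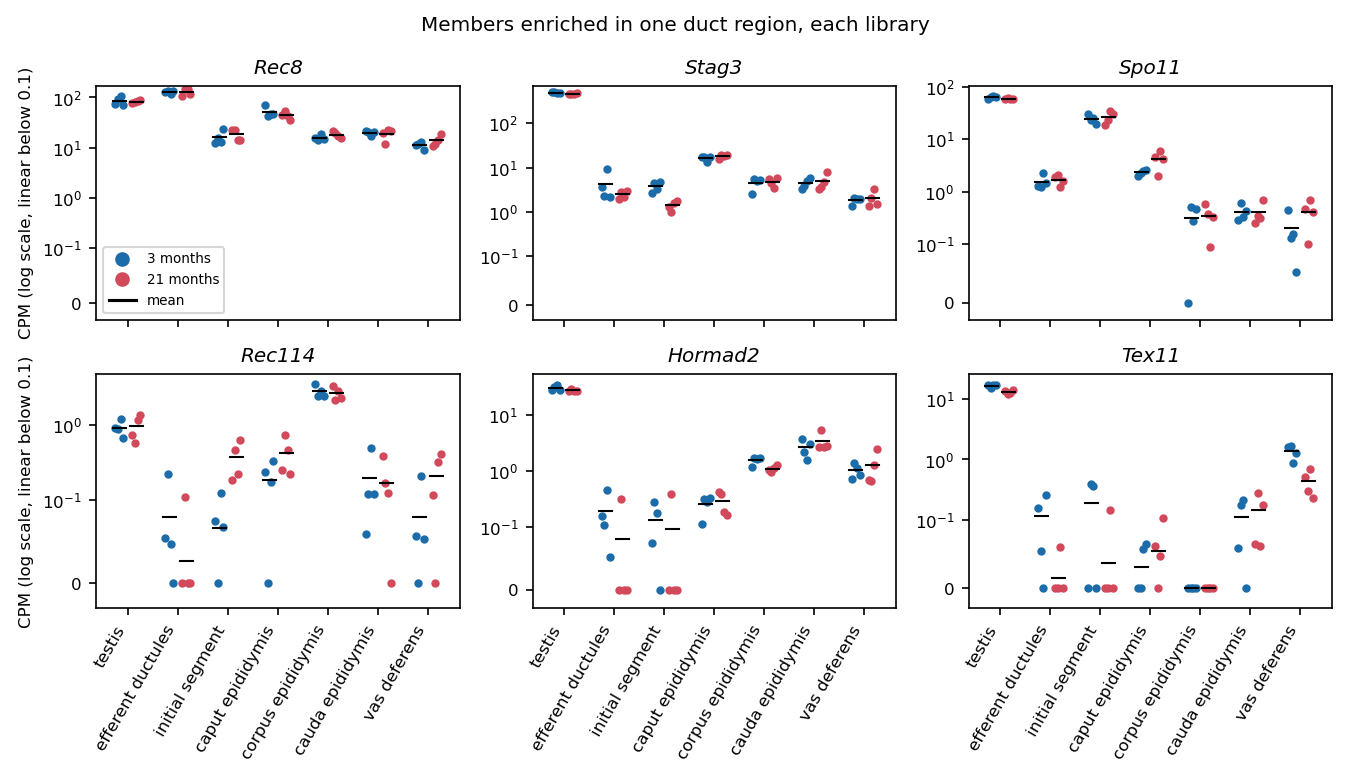
CPM of Rec8, Stag3, Spo11, Rec114, Hormad2 and Tex11 in each library of the 7 regions at both ages, on an axis that is logarithmic above 0.1 CPM and linear below it. Each gene has its highest duct in another place, Rec8 in the efferent ductules, Spo11 in the initial segment and Rec114 in the corpus, where it exceeds the testis.

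Against each other duct in turn, rather than against their mean, 4 of the 10 calls at 3 months and 4 of the 13 at 21 months still passed. The 3-month calls were Spata22, Spo11, Rec114 and Tex11, and the 21-month calls were Majin, Spo11, Rad21l and Rec114. Without replicates 1 and 4 of the 21-month efferent ductules 15 calls were made at 21 months instead of 13.

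The ages were then compared within each duct region, among the 26 to 29 members that had at least 10 reads over the 8 libraries of a region. No member was called by the edgeR quasi-likelihood test in the efferent ductules (6.99% of all genes called), caput (8.14%), corpus (2.97%) or cauda (0.128%). An unadjusted p under 0.05 was reached there by 3 of 29, 3 of 28, 1 of 26 and 2 of 28 tested members, against 25.1%, 25.0%, 17.3% and 10.5% of all genes. DESeq2 called 1 member in the corpus and none in the other 3. By the rule of the study 2, 3, 1 and 2 members passed in these regions, against 12.8%, 13.2%, 6.84% and 8.30% of all genes. The rule was passed by 10 of 27 tested members in the initial segment (37%, against 11.5% of all genes). In the vas deferens 4 of 26 passed it (15.4%, against 17.8% of all genes). Without replicates 1 and 4 of the 21-month efferent ductules, 2 members were higher and 2 lower there, where 15.1% of all genes were higher and 12.9% lower.

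In the initial segment 4 of the 27 tested members were lower at 21 months (14.8%, where 3.01% of all genes were lower and 6.36% were called in either direction), and none was higher. Young and old libraries were fully separated for 8 of the 27 (29.6%, against 12.4% of all genes). All 4 were abundant in the testis, and all 4 were present in the initial segment at a few CPM or less. Sycp2 had CPM of 2.01, 3.51, 1.37 and 1.245 at 3 months and 0.682, 0.550, 0 and 0.349 at 21 months (log2 fold change -2.33 ± 0.54 (SE), adjusted p = 0.0187 by the edgeR quasi-likelihood test). Syce1 had 1.87, 2.845, 0.538 and 0.655 and 0.310, 0, 0.2195 and 0.279 (log2 fold change -2.78 ± 0.66 (SE), adjusted p = 0.0211 by the edgeR quasi-likelihood test). The ages did not overlap for either gene.

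Stag3 fell from 2.59, 4.41, 3.17 and 4.455 CPM to 1.303, 1.02, 1.61 and 1.74 CPM (log2 fold change -1.36 ± 0.26 (SE), adjusted p = 0.00603 by the edgeR quasi-likelihood test), again without overlap. Meioc had 1.01, 1.395, 0.657 and 0.459 CPM at 3 months and 0.248, 0, 0 and 0.0697 CPM at 21 months (log2 fold change -3.23 ± 0.71 (SE), adjusted p = 0.0145 by the edgeR quasi-likelihood test), or 57 against 5 reads over the 4 libraries of each age. The pooled reads of Meioc differed 10.1-fold, with a 95% exact binomial interval of 4.08 to 32.2 that covers counting error only. Leaving out 1 library in turn gave log2 fold changes of -4.75 to -2.87. With filterByExpr Syce1 and Meioc were not tested. Stag3 passed in all 8 fits that left out 1 library, while Sycp2 and Meioc each missed the threshold without 3-month replicate 2 (adjusted p = 0.0816 and 0.0586 by the edgeR quasi-likelihood test) and without 21-month replicate 4 (0.0622 and 0.0501), and Syce1 missed it in 5 of the 8 fits that left out 1 library, with 3-month replicate 1 or 2 or 21-month replicate 2, 3 or 4 left out.

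Transcripts of later germ cells were lower in the same libraries. Of the 13 spermatid and sperm markers 10 were lower at 21 months, with a median log2 fold change of -2.14 over the list against -0.01 over all genes. They included the transition proteins and a protamine that package sperm DNA, Tnp2 (-3.34), Tnp1 (-2.82) and Prm1 (-2.68). The list summed to 42.7 to 132 CPM at 3 months and 15.4 to 35.2 CPM at 21 months, which did not overlap. Of 10 spermatocyte markers 5 were lower, among them Ldhc (-2.68), Clgn (-2.52) and Piwil1 (-2.48). Of the other genes of meiotic recombination and synapsis 22 were tested and none was called (median -0.31). Of 7 tested immune cell markers 3 were higher (median 0.81), and of 10 proliferation markers 1 was lower (median -0.59). Their part in the lower member values was not tested.

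**Figure D5:**
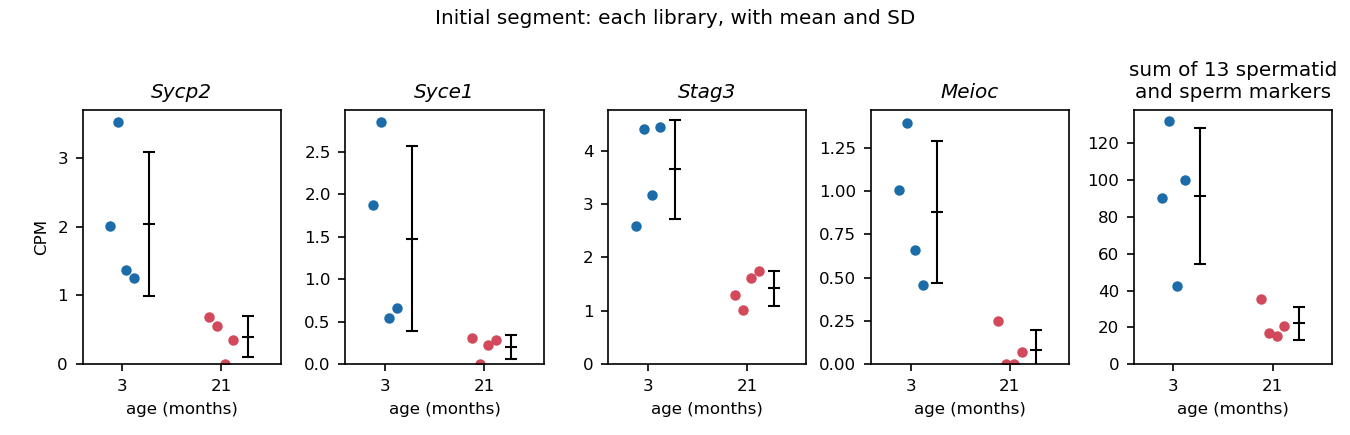
CPM in each initial segment library at 3 and 21 months of Sycp2, Syce1, Stag3 and Meioc and of the summed 13 spermatid and sperm markers. All 4 genes and the marker sum are lower in every 21-month library than in every 3-month library.

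In the vas deferens 4 of the 26 tested members were called (15.4%, where 19.9% of all genes were called), 2 higher (11.4% of all genes) and 2 lower (8.47%). Tex11 was lower, with region-scaled CPM of 1.84, 1.90, 1.02 and 1.46 at 3 months and 0.617, 0.356, 0.8105 and 0.275 at 21 months (log2 fold change -1.57 ± 0.38 (SE), adjusted p = 0.0166 by the edgeR quasi-likelihood test). The ages did not overlap, and without 3-month replicate 1 the adjusted p was 0.0552. Mlh3 was lower by a smaller amount, from 33.0, 35.6, 31.1 and 32.2 to 26.5, 25.3, 29.7 and 25.2 CPM (log2 fold change -0.31 ± 0.09 (SE), adjusted p = 0.0334 by the edgeR quasi-likelihood test), also without overlap, and it missed the threshold in 6 of the 8 fits that left out 1 library, all but those without 21-month replicate 3 or 4.

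Smc1b was higher at 21 months, from 1, 1, 2 and 1 reads to 8, 5, 13 and 7 reads (log2 fold change 2.60 ± 0.57 (SE), adjusted p = 0.0106 by the edgeR quasi-likelihood test). The pooled ratio was 6.31, with a 95% exact binomial interval of 2.45 to 20.7, which covers counting error only. Mei1 had 1, 0, 0 and 0 reads at 3 months and 3, 1, 5 and 6 at 21 months (log2 fold change 3.37 ± 1.04 (SE), adjusted p = 0.0427 by the edgeR quasi-likelihood test), a pooled ratio of 14.4 with an interval of 2.21 to 604 of the same kind. The log2 fold change of Mei1 ran from 3.03 to 4.97 over the 8 fits that left out 1 library. Mei1 missed the threshold in 7 of these fits, all but that without 21-month replicate 2. Mlh3 and Mei1 also missed it with the replicate number as a block (adjusted p = 0.0837 and 0.0764 by the edgeR quasi-likelihood test) and with no filter (0.0526 and 0.0559). With filterByExpr Smc1b and Mei1 were not tested, DESeq2 gave Mei1 an adjusted p of 0.0505, and in the edgeR fit over all 56 libraries Mlh3 (0.244) and Smc1b (0.137) missed the threshold. Young and old libraries were fully separated for 3 of the 26 tested members (11.5%, against 25.0% of all genes). In the old vas deferens 7 of 8 immune cell markers (median log2 fold change 2.84) were also higher. Of 8 tested duct epithelium markers 4 were higher and 1 lower (median 1.49), while their sum was lower in every old library (12820 to 21170 against 24480 to 27630 region-scaled CPM). Of the spermatocyte markers 2 were higher and 1 lower (median 0.61), and of the 13 spermatid and sperm markers 1 was higher (median 0.63). Their part in these values was not tested.

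Whether age acted differently in the testis than in the ducts was tested over all 56 libraries, as the testis difference minus the mean of the 6 duct differences. No member was called by the edgeR quasi-likelihood test, where 0.0649% of the 36977 genes were. For 6 members (Syce3, Tex12, Spata22, Tex11, Rnf212 and Terb2) the fit gave a standard error over 100 and no usable estimate, so they could not have been called. Among the other 28, Rad21l, Hormad1 and Mei1 also had no read in at least 1 duct group, so their estimates are uncertain too. Of these 28, 1 member, Psmc3ip, had an unadjusted p under 0.05 (-0.50 ± 0.22 SE on the log2 scale, adjusted p = 0.793).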

How the data were processed

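RNA from 7 regions of the male tract of C57BL/6 mice, 4 libraries per region and age, was sequenced as stranded total RNA in paired ends. The deposited values are raw read counts per Ensembl gene, which per the labels the authors made with cutadapt, HISAT2 and HTSeq on mm10. Tool versions, the strand setting and the annotation release are not given in the sources used here. Without a known strand setting, reads of overlapping genes on opposite strands cannot be told apart.

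Symbols, exon lengths and overlaps came from GENCODE M21. Genes with at least 10 reads in total were tested with the edgeR 4.0.16 quasi-likelihood test in R 4.3.3, TMM scaling and Benjamini-Hochberg adjustment over all genes tested, and calls were made at an adjusted p under 0.05. Ages were compared within the 8 libraries of a region, and regions within the 28 libraries of an age, where a 4-fold difference of means was also required. DESeq2 1.42.0, other scalings, other filters, a replicate block and left-out libraries were alternatives. Standard errors and intervals of log2 fold changes were derived from the fold change and the F statistic of the edgeR test, and are approximate. The scripts were tested on simulated data.

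Values in every library are given for members called for age or enriched in a duct, for the highest and lowest gene per kb of each role group and for the 2 highest members of each duct at 3 months. Of other lists at most 3 called genes are named, and some genes of these lists are not reported here. The libraries of Prdm9, and those of the members with an unadjusted p under 0.05 in the testis, are shown beyond that rule and were chosen after their values were seen. The members and the lists were chosen with earlier results of these data known. The p-values measure the spread between libraries, and the labels do not say that a replicate number marks 1 mouse across regions.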

Additional observations from a re-analysis of the deposited data

Results flagged for a closer look

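By Dixon's ratio at the 95% level the highest or lowest library stood apart in 7 of 54 groups of 4 libraries. Chance gives this in about 1 of 20 groups only where values are normally distributed. Most of the groups were those of members called in these libraries, and several held few reads. The 7 are therefore not read as an excess. Stag3 in the 3-month caput was lowest in replicate 3, at 13.55 CPM against 17.2 to 17.41 in the others. Hormad2 in the 21-month cauda was highest in replicate 2, at 5.449 CPM against 2.71 to 2.766. Rnf212 in the 3-month caput was highest in replicate 2, at 0.8036 CPM against 0 to 0.1162, and that library is the one in which Gm42418 took 49.7% of the counts. Mei1 in the 3-month vas deferens had 0.06575 CPM in replicate 1 and no read in the others.

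The median of the 34 members as percent of the testis was high in replicate 3 of the 3-month efferent ductules, at 3.269% against 0.4088% to 0.8616%, and in replicate 2 of the 21-month efferent ductules, at 1.49% against 0.3886% to 0.5112%. In replicate 1 of the 3-month corpus it was low, at 0.4214% against 1.187% to 1.307%.

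Young and old libraries were fully separated in 2 regions, in opposite directions, for 2 members. Genes and regions were picked for this pattern in the same libraries, so the p-values of the differences are not independent evidence. The values per region come from separate fits, and their difference from 1 fit over all 56 libraries and 36977 genes. Smc1b had a log2 fold change of -1.51 in the initial segment and 2.60 in the vas deferens, and the difference of -4.3072 passed the edgeR quasi-likelihood test (adjusted p = 0.0338, where 6.29% of all genes passed). Psmc3ip had -0.26 in the testis and 0.34 in the initial segment, and the difference of -0.4531 did not pass (adjusted p = 0.701 by the same test, where 0.387% of all genes passed).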

How the results depend on the processing

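The count of testis-specific members was 27 at both ages without any 1 replicate number and with the replicate block, 29 (3 months) and 28 (21 months) with DESeq2 size factors, 26 at 3 months with filterByExpr, and 25 and 26 against each region in turn. No member was called for age in the testis, or for the testis against the ducts, under any alternative run. The counts of members called for age in the ducts moved. By the rule of the study (unadjusted p and fold) there were 2 (efferent ductules), 10 (initial segment), 3 (caput), 1 (corpus) and 2 (cauda). In the efferent ductules, where none was called, library-size scaling gave 3, a fit over all 56 libraries 1, and leaving out 21-month replicates 1 and 4 together, chosen after seeing the data, 4. In the initial segment (4 called) edgeR's filterByExpr gave 2, and in the vas deferens (4 called) filterByExpr and no filter each gave 2. In the caput (0) no filter and the fit over all 56 libraries each gave 1, and in the corpus (0) DESeq2 and no filter each gave 1. Leaving out 1 library gave 1 to 4 (initial segment and vas deferens) or 0 to 1 (caput and corpus). The lowest initial segment count of 1 came without 3-month replicate 2 and without 21-month replicate 4, and that of the vas deferens without 3-month replicate 1. Against each other duct in turn 4 members were enriched at 3 months and 4 at 21 months, and leaving out a replicate number gave 8 to 12 and 13 to 14. By the longest transcript Mei4 stood at 0.2538 CPM per kb.

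With the replicate number as a block the age counts were 4 (initial segment), 1 (caput), 2 (vas deferens) and 0 elsewhere, and 10 and 12 members were enriched in a duct. Whether the numbers mark 1 mouse across regions is not known. The mean correlations of same-numbered libraries between regions ran from -0.165 (efferent ductules and initial segment, 3 months) to 0.202 (caput and corpus, 3 months). Most were below 0.1. Depth limits calls on few reads (Rnf212, Terb2, Syce3, Mei1, Spata22 and Rad21l among them). Between testis and single ducts the directions of Prdm9, of Msh5 in the efferent ductules and of Mlh3 in the 21-month caput changed with the scaling. No fold could be given where leaving out a replicate number left the other ducts without a read (Spata22, Rad21l, Rnf212 and Terb2).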

Other observations

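Among the 25 other genes of meiotic recombination and synapsis, 24 were tested for age in the efferent ductules, and 3 were lower and 1 higher at 21 months (16.7% of those tested, where 6.99% of all genes were called). Exo1, an exonuclease of DNA repair that is also made in dividing somatic cells, had 2.62 ± 0.475 CPM at 3 months and 0.481 ± 0.400 CPM at 21 months (SD, n = 4; log2 fold change -2.31, adjusted p = 0.0183 by the edgeR quasi-likelihood test). Fignl1 had 2.26 ± 0.475 and 0.863 ± 0.217 CPM. Young and old libraries were fully separated for both genes. Of 10 proliferation markers 3 were also lower there, with a median log2 fold change of -1.16 over the list against -0.04 over all genes, and 4 of 8 immune cell markers were higher (median 1.31). Gm42418 took 22.2% and 18.5% of the counts in replicates 1 and 4 of the old group, and without these the log2 fold change was -1.72 for Exo1 and -1.57 for Fignl1. The part of the proliferation and immune markers in the lower values was not tested.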
